A study of Mus musculus with 2 samples.

Results

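Nuclear receptors are transcription factors that bind DNA through a zinc finger domain, and many of them are switched by small lipid-soluble ligands such as retinoic acid, thyroid hormone, steroids, bile acids and fatty acids. Many bind as heterodimers with a retinoid X receptor to hexamers related to AGGTCA. In the heart, retinoic acid made by the epicardium, the cell layer on the heart's surface, is a signal for growth of the muscle wall, and the estrogen-related receptors drive genes of oxidative metabolism in cardiomyocytes. The set described here holds 46 nuclear receptor genes of the mouse. Its members were the genes of that superfamily named in a fixed list, and every probe whose annotated symbol was a member was taken. By that rule 43 members had a probe, with 83 probes in all, out of 19057 named genes and 45281 probes on the array. The other 3, Nr1h2, Nr2f1 and Nr2e3, had no probe under their symbol in the annotation used here.

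The first sample was RNA of lacZ-positive epicardial cells isolated at E11.5, a day in the middle of heart development, and it was set against RNA of all cells dissociated from such hearts. Both samples carried the Tcf21lacZ allele, in which lacZ is placed at Tcf21, the gene of an epicardial transcription factor, and the strain background was mixed, from C57BL/6, 129 and CD-1. The labels do not say how many hearts were pooled or how the lacZ-positive cells were sorted. Each group was 1 Illumina bead array, so no difference below has a replicate check, no test between groups was possible, and sizes are described only.

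The lacZ-positive array was the brighter, with a median raw intensity of 63.5 against 57.6 on the total heart array, and a probe was read by a median of 43 beads. Detected means that a probe had a detection p-value under 0.01, where that p is the share of control probes as bright or brighter. Values are log2 signals after background correction and quantile normalization, and a log2 ratio is lacZ-positive minus total heart, followed by its standard error over beads, which covers these arrays only. Markers were checked against the labels. All 7 detected epicardial markers had a ratio above 0, Tcf21 among them at 1.34, and their median was 1.52. Tbx18 and Msln were not well above background on either array, and no probe was listed for Wt1. All 9 detected cardiomyocyte markers were lower, with a median of -1.61, and all 6 detected erythroid markers, with a median of -2.85. The summed normalized signal of the cardiomyocyte markers was 26347 on the lacZ-positive array and 84394 on the total heart array, and all 9 were detected on both arrays. That of the erythroid markers was 10833 on the lacZ-positive array and 47931 on the total heart array. Of 7 detected endothelial markers 2 were at least 2-fold lower and 0 higher, at a median of -0.45. With the authors' processed values, no background correction, an offset of 50 or no normalization between arrays 1 was lower. Without that normalization their median was -0.065, beside 0.419 over all genes. The summed signal of the endothelial markers was 7481 on the lacZ-positive array and 7289 on the total heart array.

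Of the 43 members with a probe, 18 were detected on at least 1 array. That is 41.9%, beside 51.0% of all named genes. Among these 18, 11 were detected on both arrays, 7 on the lacZ-positive array only and 0 on the total heart array only. Over all 9713 detected genes, 5.83% were detected on the lacZ-positive array only and 3.88% on the total heart array only. The 7 were Nr1h4, Vdr, Nr2c1, Rarg, Rxra, Rxrg and Nr1d2. In total heart the detection p of the probe that stands for the gene was from 0.0118 for Nr1d2 to 0.0224 for Rxra in 5 of them, 0.0491 for Nr1h4 and 0.109 for Vdr. Passing only through the lacZ-positive array favoured a ratio above 0.

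At a size of at least 2-fold, 2 of the 18 were higher in the lacZ-positive cells, Nr1h4 and Vdr, and 1 was lower, Esrrb. With genes seen on 1 array at their bounds, Nr1h4 was the 1 higher member and Vdr was not past 2-fold. Over all detected genes 3.82% were at least 2-fold higher and 6.44% at least 2-fold lower, or 3.29% and 5.48% with bounds, and with 1 array per group nothing particular to the receptors can be read from such small counts. The remaining 15 were within 2-fold. The median log2 ratio of the 18 was 0.11, beside 0.044 over all genes. With genes seen on 1 array set to their bounds, the median of the 18 was 0.074, beside 0.025 over all genes. Of the 18 ratios 11 were above 0 and 7 below, beside 5267 above and 4436 below among the 9713 detected genes. Of the members that passed only through the lacZ-positive array, Nr1h4, Vdr, Nr2c1, Rarg, Rxra and Rxrg were above 0 and Nr1d2 below. Without normalization between the arrays the median ratio of all genes was 0.42, and the share of higher genes among those past 2-fold was 72.8% in place of 37.2%. Taken relative to the median of all genes, 16 of the 18 ratios had the same sign with and without that normalization. Nr2f6 and Rxrg turned, both close to 0, and the largest move was that of Vdr, by 0.18.

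**Figure D1:**
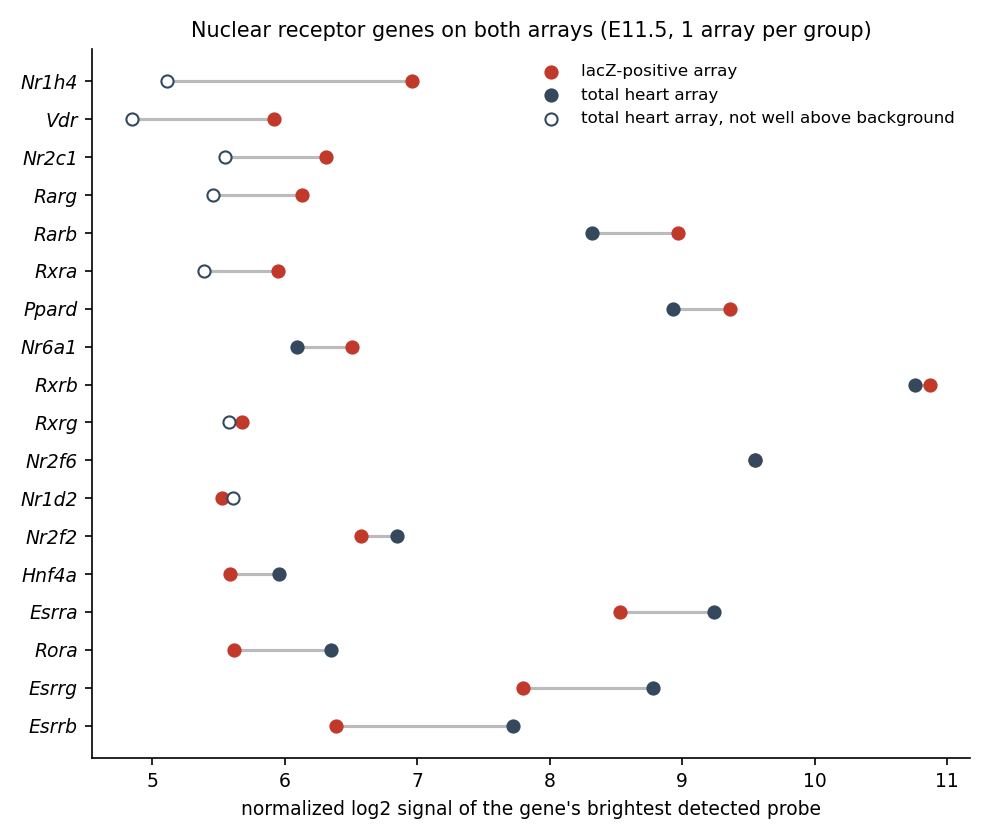
Normalized log2 signal (horizontal axis) of the 18 detected nuclear receptor genes (rows, ordered by log2 ratio) on the lacZ-positive array (red) and the total heart array (dark). Open points were not well above background, and the rows run down to Esrrb at 6.39 in lacZ-positive cells and 7.72 in total heart.

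Sequence bears on 1 group of members, the retinoid receptors, because retinoic acid receptors bind paired hexamers and Rarb is itself a textbook target of such a pair. Promoter windows of 300 bases, 250 before and 50 after each annotated start, were taken from RefSeq (build GRCm38.p6). Windows of members on 1 chromosome were left out, a step not made for the windows of all genes. This gave 63 windows for 42 members. They were searched on both strands for pairs of AGGTCA or AGTTCA or GGGTCA or GGTTCA in the same direction with 5 bases between them, a spacing known as DR5. Of these 63 windows 1 held such a pair, a window of Rarb, beside 0.0974% of all 32851 windows. It is printed here because that element is the classic retinoic acid response element of the gene. The pair was known before the search, so the count is no result about the members as a set. The window lies at chr14:16575427-16575726 on the minus strand, capitals mark the pair, and the pair begins 53 bases before the start.
Rarb: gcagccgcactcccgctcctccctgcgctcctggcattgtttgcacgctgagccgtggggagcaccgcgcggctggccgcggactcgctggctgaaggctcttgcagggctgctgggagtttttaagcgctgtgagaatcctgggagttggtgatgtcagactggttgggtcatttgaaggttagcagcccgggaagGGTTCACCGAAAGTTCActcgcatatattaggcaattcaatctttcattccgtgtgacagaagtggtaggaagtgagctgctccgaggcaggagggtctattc

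The lone hexamer AGGTCA, on either strand, was in 12 of the 63 windows of members, or 19.0%, beside 16.3% of all windows. The 12 windows belonged to 11 members, which included 6 detected ones, the retinoid receptors Rarg, Rxra and Rxrg and also Nr1d2, Nr1h4 and Nr6a1. A site each of 5 of them follows with 10 flanking bases, read along the gene's strand, with the hexamer or its reverse complement in capitals, to show that the letters around it differ. They lie at chr15:102257732-102257757 for Rarg, chr2:27709234-27709259 for Rxra, chr1:167618167-167618192 for Rxrg, chr14:18239168-18239193 for Nr1d2 and chr10:89506857-89506882 for Nr1h4.
Rarg: cccaggacacTGACCTctgccagctc
Rxra: gtggcaggaaAGGTCAgtcactctct
Rxrg: cggggttgaaAGGTCAgctgaaagct
Nr1d2: ttggaagaagAGGTCAggaccgctcg
Nr1h4: gtgtggcattTGACCTccagccagtc
None of the 63 windows held AGGTCA with TCA just before it, the extended element that estrogen-related receptors favour, which 0.423% of all windows held. Nor did any of the 63 hold a pair of the hexamers with 1 or 4 bases between them. These are letters in a window and were not measured as bound sites.

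Among the retinoid receptors Rarb was higher in the lacZ-positive cells, by less than 2-fold. Of 6 members on the array 5 were detected, all within 2-fold, but 3 of them passed through the lacZ-positive array only. Rarb, the retinoic acid receptor beta gene whose window is printed above, gave the clearest values. Its raw intensity was 612 ± 29.5 in lacZ-positive cells and 312 ± 16.1 in total heart (bead standard error), and its log2 signal was 8.97 in lacZ-positive cells against 8.32 in total heart. The difference is 1.58-fold, a log2 ratio of 0.66 ± 0.11, and the other detected probe of Rarb gave 0.67. The third Rarb probe, just short of detection, gave 0.50. Among the 8770 genes detected on both arrays, 775 had a higher ratio than Rarb. Rarg, the gamma form, stood at 6.13 in lacZ-positive cells and at 5.46, not well above background, in total heart. By its bound Rarg was at least 1.40-fold higher, and its other detected probe gave 0.55. Over the alternatives in which Rarg was not detected in total heart this bound ran from 1.22-fold to 1.72-fold. Rara, the alpha form, was not well above background on either array, with raw intensities of 66.8 in lacZ-positive cells and 55.3 in total heart.

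Of the retinoid X receptors, the shared partners of many receptors, Rxrb and Rxrg were close to level. Rxrb was bright on both arrays, with a raw intensity of 2165 ± 52.7 in lacZ-positive cells and 1517 ± 58.2 in total heart, and after normalization its log2 ratio was 0.11 ± 0.067. Its dimmer detected probe gave -0.16, so the direction for Rxrb was not settled by its probes. Rxra was detected in lacZ-positive cells only, with a log2 signal of 5.95 there and 5.39 in total heart, and was at least 1.23-fold higher. Rxrg stood at 5.68 in lacZ-positive cells and 5.58 in total heart, with a log2 ratio of 0.10 ± 0.18 that is smaller than its bead error.

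Genes that supply, bind and break down retinoic acid moved in both directions. Of 15 on the array 6 were detected, 2 at least 2-fold higher, 1 at least 2-fold lower and 3 within 2-fold. The count of lower genes was 0 with the authors' processed values, no background correction, an offset of 50 or no normalization between arrays. The synthesis genes Aldh1a1 and Aldh1a2 were 3.70-fold and 2.41-fold higher. Crabp2, which carries retinoic acid to its receptors, was 2.32-fold lower, with a log2 signal of 5.94 in lacZ-positive cells and 7.16 in total heart. The breakdown genes Cyp26a1 and Cyp26b1 and the retinol dehydrogenase gene Rdh10 were not well above background on either array. Among genes known to respond to retinoic acid receptors, 8 of 14 were detected, of which 2 were at least 2-fold higher, 1 lower and the other 5 within 2-fold. Their median was 0.67, or 0.54 with bounds, while it was 0.33 at a detection limit of 0.05 and 0.16 with no detection filter. Over the alternatives the count of higher genes ran from 1 to 4 and that of lower genes from 0 to 1. Rarb and Crabp2 are themselves in that list. Its higher genes were Rarres2, which encodes the chemoattractant chemerin, at a log2 ratio of 1.51, and the homeobox gene Meis2 at 1.00. The 3 detected probes of Rarres2 ran from -0.68 to 1.57 and those of Meis2 from 1.00 to 2.19, so for Rarres2 they disagreed in sign. Hic1, a repressor gene, stood at 0.92.

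**Figure D2:**
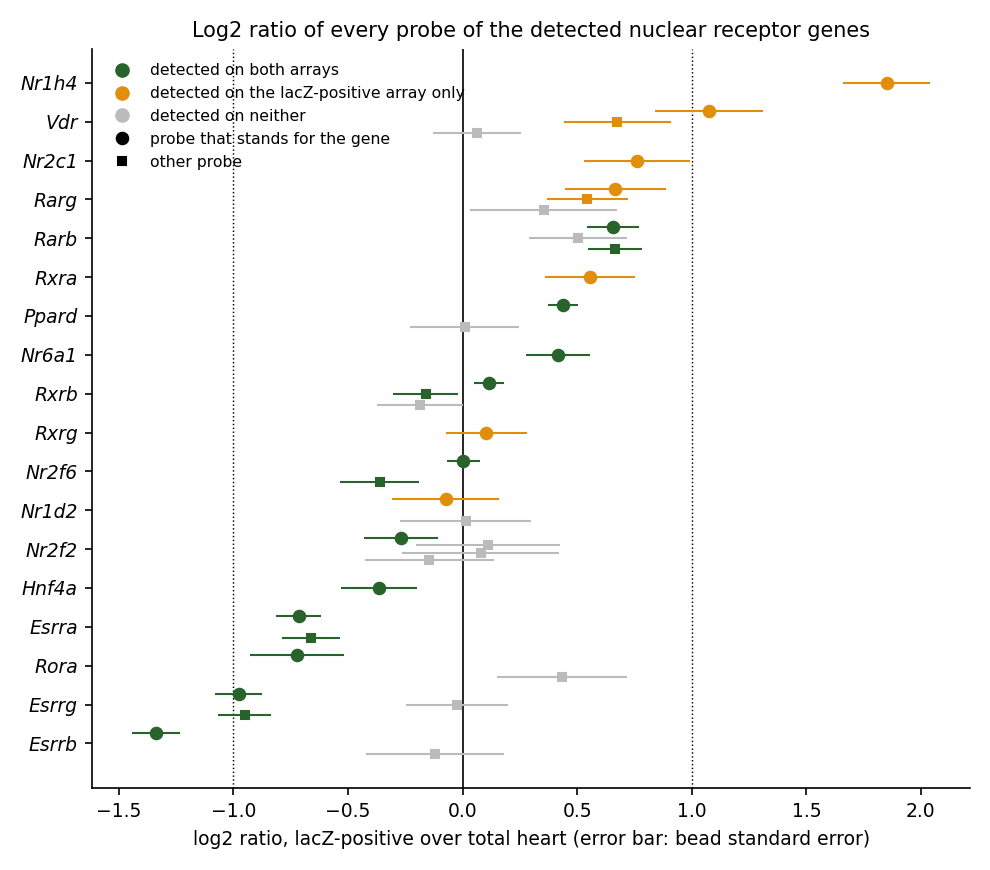
Log2 ratio (horizontal axis, lacZ-positive over total heart) of every probe of the 18 detected nuclear receptor genes, with the bead standard error as error bar. Dotted lines mark 2-fold, round points the probe that stands for the gene, and colours whether a probe was detected on both arrays, on the lacZ-positive array only or on neither. The detected probes of Rarb, Esrra and Esrrg lie together and those of Vdr are 0.40 apart, while probes of Esrrb, Esrrg and Rora that were detected on neither array lie away from the detected ones.

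The estrogen-related receptors were lower in the lacZ-positive cells, all 3 of them, each detected on both arrays. These are orphan receptors, without a known natural ligand of the classic kind, that act with the coactivators Ppargc1a and Ppargc1b on genes of mitochondria and fat oxidation. Esrrb, best known from pluripotent and trophoblast cells, had a raw intensity of 131 ± 5.72 in lacZ-positive cells and 218 ± 7.06 in total heart. Its log2 signal was 6.39 in lacZ-positive cells against 7.72 in total heart, which is 2.53-fold lower, at a log2 ratio of -1.34 ± 0.10. Its other probe, detected on neither array, gave -0.12. Of the 8770 genes detected on both arrays, 273 had a lower ratio than Esrrb. The ratio of Esrrb was -0.99 with the authors' processed values and -0.98 without normalization between arrays, both just under 2-fold. Relative to the median of all genes Esrrb stood at -1.38 in the main setting, -1.39 without that normalization and -1.03 with the authors' values. Esrrg, the form most tied to oxidative muscle, had 289 ± 15.3 raw units in lacZ-positive cells and 413 ± 13.4 in total heart. It was 1.97-fold lower, at -0.98 ± 0.10, just inside 2-fold, and its other detected probe gave -0.95, while a probe of Esrrg detected on neither array gave -0.024. Esrra, the widely expressed form, had 455 ± 20.7 raw units in lacZ-positive cells and 555 ± 24.0 in total heart, at a log2 ratio of -0.71 ± 0.098, and its other probe gave -0.66. In bulk RNA such as this, fewer cells of a type and less RNA per cell cannot be told apart.

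Coactivators of the receptors were mostly within 2-fold, with 2 of 15 detected genes at least 2-fold lower and 0 higher, and a median of 0.048. With the authors' processed values, no background correction or no normalization between arrays 1 was lower. Ppargc1b was 2.21-fold lower, with log2 signals of 7.38 in lacZ-positive cells and 8.52 in total heart. Ppargc1a stood at -0.82 ± 0.075. The lowest was Ncoa4, which also delivers ferritin for breakdown in red cell precursors, at 2.68-fold lower, and its 3 detected probes lay between -1.42 and -1.31. The highest measured ratios were those of Crebbp at 0.23, Ncoa5 at 0.27 and Ncoa2 at 0.44, and Ncoa2 was not well above background in total heart. Ncoa1 and Ncoa3, which encode p160 coactivators, were not well above background on either array.

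Metabolic genes that PPARs and estrogen-related receptors are known to control were lower as a list. Of 21 on the array 16 were detected, 5 at least 2-fold lower, 4 of them with bounds, 0 higher and 11 within 2-fold. Their median was -0.62, beside 0.044 over all genes. Without normalization between arrays it was -0.20, beside 0.419 over all genes. The count of lower genes ran from 3 to 5 over the alternatives. Cpt1b, the muscle form of the carnitine transferase for mitochondrial fatty acid entry, was 2.97-fold lower, and Fabp3, the fatty acid binding protein of the heart, 2.66-fold. Idh3a of the tricarboxylic acid cycle was 2.32-fold lower and the kinase gene Pdk4, which restrains glucose oxidation, 2.03-fold. The creatine kinase gene Ckmt2 was not well above background in lacZ-positive cells and at least 1.45-fold lower. The 3 highest ratios of the list were those of Fabp5 at 0.42, Plin2 at 0.37 and Angptl4 at 0.34. Cardiomyocyte markers were lower beside these genes, at least 2-fold in 8 of 9, and their part in the lower values of the receptors, coactivators and metabolic genes was not tested.

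**Figure D3:**
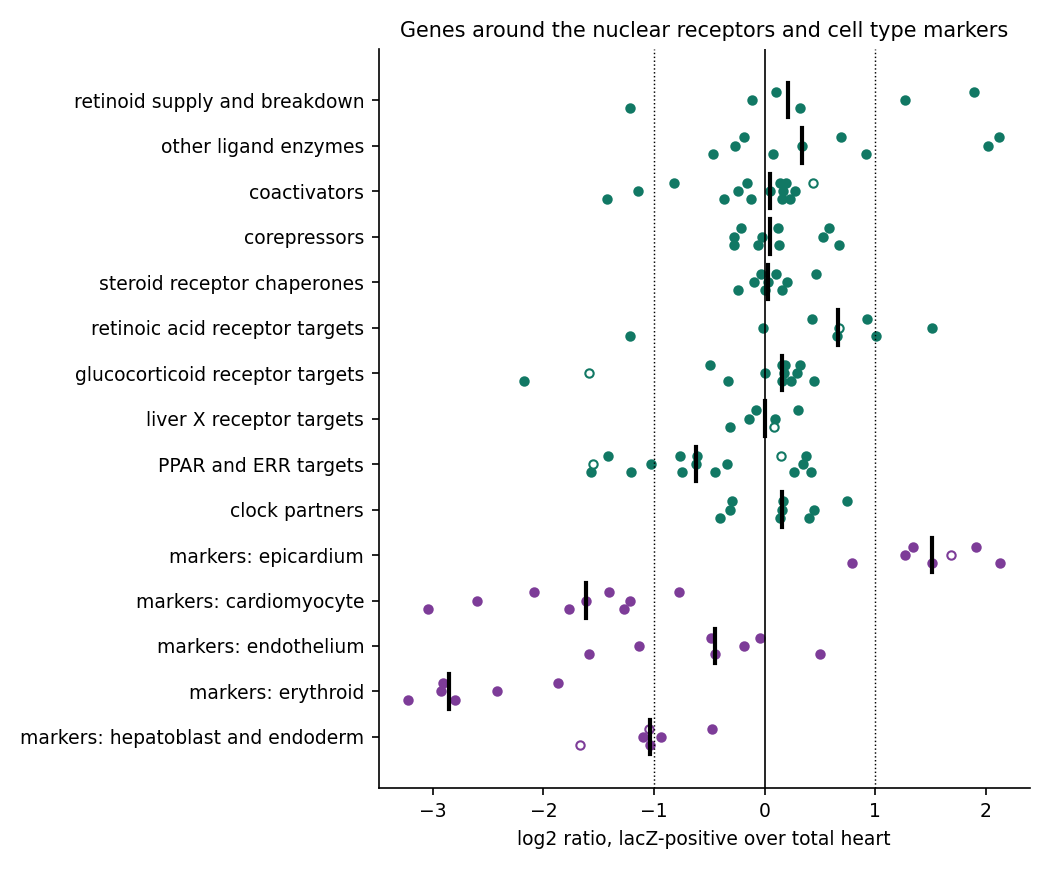
Log2 ratio (horizontal axis, lacZ-positive over total heart) of the detected genes in 10 lists of ligand supply, cofactors and targets (green) and in 5 lists of cell type markers (purple). Black bars are list medians, open points were detected on 1 array only and dotted lines mark 2-fold. PPAR and ERR targets have a median of -0.62, and cardiomyocyte markers one of -1.61.

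The peroxisome proliferator-activated receptors differed in whether they were seen at all. Ppard, the broadly expressed delta form and a sensor of fatty acids, had 796 ± 24.1 raw units in lacZ-positive cells and 452 ± 13.4 in total heart. After normalization Ppard was 1.36-fold higher, with a log2 ratio of 0.44 ± 0.065, and its other probe was not well above background on either array. Ppara, the form of fat-burning tissue, was not well above background on either array. Pparg, the form of fat cells, came closest to the detection limit among the members left out, with a detection p of 0.0107 in lacZ-positive cells and 0.0449 in total heart by its brightest probe.

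Nr1h4 had the highest ratio of the set. It encodes FXR, the bile acid receptor, known mainly from liver and gut. Its 1 probe had a raw intensity of 178 ± 7.75 in lacZ-positive cells and 65.8 ± 3.87 in total heart, and a detection p of 0 in lacZ-positive cells and 0.0491 in total heart. The log2 signal of Nr1h4 was 6.96 in lacZ-positive cells and 5.11 in total heart, where the lowest detected signal was 5.65, and against that signal the gene was at least 2.48-fold higher. Over the alternatives in which Nr1h4 was not detected in total heart this bound ran from 1.80-fold to 3.07-fold. The measured log2 ratio was 1.85 ± 0.19, and it was 1.13 to 2.10 over all the alternatives tried. Nr0b2, a repressor gene that FXR switches on in liver, was not well above background on either array. Of 6 detected markers of hepatoblasts and endoderm, where FXR is known to act, 0 were higher and 4 at least 2-fold lower in lacZ-positive cells, or 2 with bounds, with a median of -1.04. Their summed normalized signal was 1260 on the lacZ-positive array and 2569 on the total heart array, and their part in the value of Nr1h4 was not tested. The count of lower markers ran from 1 to 4 over the alternatives, and Alb was not well above background on either array.

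Of the other sterol and xenobiotic receptors none was detected. Nr1h3, the liver X receptor alpha gene, had 64.2 raw units in lacZ-positive cells and 68.0 in total heart. Genes that liver X receptors are known to control showed small differences, with 6 of 11 detected, all 6 within 2-fold, from Scd2 at -0.32 to Apoe at 0.30, and a median of 0.0020. Nr1i2, the pregnane X receptor gene, and Nr1i3, the constitutive androstane receptor gene with 5 probes on the array, were not well above background on either array. Among enzymes that make or clear other receptor ligands, 9 of 16 were detected, 2 at least 2-fold higher, 0 lower and 7 within 2-fold, and 4 were higher without normalization between arrays. Hpgd, which inactivates prostaglandins, was 4.34-fold higher and Ch25h, which makes an oxysterol, 4.04-fold. Cyp7b1, which clears oxysterols, stood at 0.91, and the lowest of this list was Cyp27a1, which makes another oxysterol, at -0.47.

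Vdr, the vitamin D receptor gene, was seen in lacZ-positive cells only. Its brightest detected probe had 105.0 ± 6.41 raw units in lacZ-positive cells and 59.3 ± 3.74 in total heart, a log2 signal of 5.92 in lacZ-positive cells and 4.85 in total heart. The measured log2 ratio was 1.08 ± 0.24, but the bound is at least 1.21-fold higher, since both values lie close to background. The other detected probe of Vdr gave 0.68 and the third, detected on neither array, 0.061, so the size depended on the probe. With the mean of the detected probes, the authors' processed values, no background correction or an offset of 50, Vdr lay under 2-fold, between 0.59 and 0.88. Cyp24a1, the vitamin D catabolic gene that this receptor induces, was not well above background on either array. Thra and Thrb, the thyroid hormone receptor genes, were not detected. Thra came nearest in total heart, with 68.7 raw units in lacZ-positive cells and 75.6 in total heart.

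Receptors of the clock and their partners were within 2-fold where they were detected. Rora, an activator of clock genes, had 91.6 ± 5.94 raw units in lacZ-positive cells and 106 ± 6.45 in total heart, a log2 ratio of -0.72 ± 0.20. Its other probe, detected on neither array, gave 0.43, of opposite sign. Nr1d2, a Rev-erb repressor gene, was just inside the detection limit, with a detection p of 0.00855 in lacZ-positive cells and 0.0118 in total heart. Its log2 ratio of -0.074 ± 0.23 is smaller than its error. The ratio became 0.185 without normalization between arrays, where all genes had a median of 0.419. Nr1d1 and Rorb were not well above background on either array. Of the 9 detected clock genes among 14 on the array, all 9 were within 2-fold, from Ciart at -0.40 to Bhlhe40 at 0.75, with a median of 0.16. Without normalization between arrays 1 was at least 2-fold higher and the median was 0.534, beside 0.419 over all genes.

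In the COUP-TF group and its relatives, Nr2f2 and Nr2f6 were close to level. Nr2c1, detected in lacZ-positive cells only, was higher there by less than 2-fold. Nr2f2, or COUP-TFII, is known for atrial and venous identity and was read by 4 probes, of which 1 was detected. That probe had 145 ± 7.95 raw units in lacZ-positive cells and 135 ± 8.62 in total heart, and after normalization a log2 ratio of -0.27 ± 0.16. Without normalization between arrays Nr2f2 stood at 0.094, where all genes had a median of 0.419. Relative to the median of all genes it was -0.313 with normalization and -0.325 without. The Nr2f2 probes detected on neither array gave both signs, from -0.145 to 0.11, so its direction was not settled. Nr2f6 was bright on both arrays, with 900.3 ± 28.8 raw units in lacZ-positive cells and 675 ± 23.8 in total heart and a log2 ratio of 0.0030 ± 0.072 by its brighter probe. The dimmer probe gave -0.36, and the mean of both Nr2f6 probes was -0.18. Nr2c1, the testicular receptor 2 gene, had 126 ± 7.88 raw units in lacZ-positive cells and 76.9 ± 5.74 in total heart. Its measured log2 ratio was 0.76 ± 0.23, and by its bound it was at least 1.59-fold higher. Over the alternatives in which Nr2c1 was not detected in total heart this bound ran from 1.32-fold to 1.95-fold. Nr2c2, its close relative, was not well above background on either array.

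**Figure D4:**
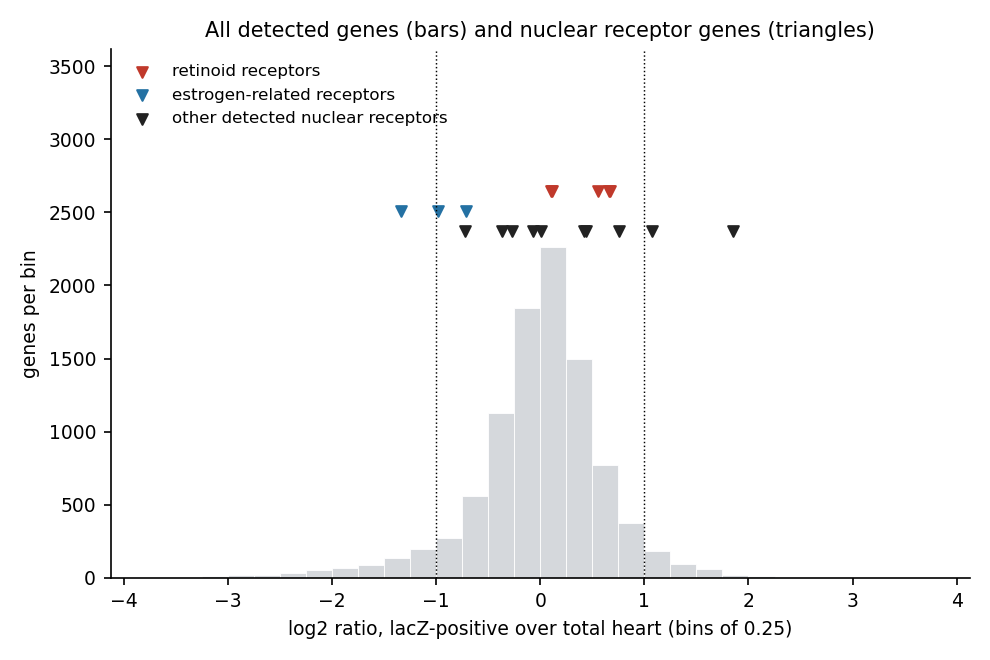
Number of genes per bin of log2 ratio (lacZ-positive over total heart) for the 9713 detected genes (bars), with the 18 detected nuclear receptor genes as triangles. The estrogen-related receptors, all detected on both arrays, lie between -1.34 and -0.71, and the retinoid receptors between 0.10 and 0.67. Among the latter, Rarg, Rxra and Rxrg were detected on the lacZ-positive array only, which favoured a ratio above 0. Dotted lines mark 2-fold.

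Hnf4a, a receptor gene of liver and endoderm, was dim on both arrays. It had 90.3 ± 4.69 raw units in lacZ-positive cells and 89.5 ± 4.05 in total heart, nearly equal before normalization and at a log2 ratio of -0.36 ± 0.17 after it. Nr6a1, the germ cell nuclear factor gene of early embryos, had 140 ± 7.08 raw units in lacZ-positive cells and 94.4 ± 4.11 in total heart, a log2 ratio of 0.42 ± 0.14. The relatives Hnf4g, Nr5a1 and Nr5a2 were not well above background on either array.

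The steroid receptor genes as a group were not seen. Nr3c1, Nr3c2, Esr1, Esr2 and Pgr had 12 probes between them and none was detected on either array. Nr3c1, the glucocorticoid receptor gene and the most widely expressed of these in other tissues, had 61.5 raw units in lacZ-positive cells and 53.5 in total heart by its 1 probe. A dim probe sets no limit on the RNA, so these genes were undetected here and are not shown to be silent. The chaperones that hold steroid receptors ready were present, with 9 of 10 detected, all within 2-fold, from Stip1 at -0.24 to Cdc37 at 0.46, and a median of 0.034. Among genes known to respond to glucocorticoids 13 of 15 were detected, 2 at least 2-fold lower, 0 higher and 11 within 2-fold. Their median was 0.16, and 1 was lower with bounds and also with the authors' processed values, no background correction or an offset of 50. Both lower ones were metallothionein genes, which metals also induce: Mt1 was 4.51-fold lower and Mt2, not well above background in lacZ-positive cells, at least 1.99-fold lower. The classic responders Fkbp5 at 0.16, Per1 at 0.16 and Klf9 at 0.30 were near level. Tsc22d3 stood at -0.49 by its brightest detected probe, and its other detected probe gave -1.30. Corepressors had 10 of 11 genes detected, all 10 within 2-fold, from Gps2 at -0.28 to Tbl1xr1 at 0.67, while 2 were at least 2-fold higher without normalization between arrays.

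The NR4A receptors, which immediate early signals induce, were not detected. Nr4a1 had 44.0 raw units in lacZ-positive cells and 34.2 in total heart, and Nr4a2 came nearest to the limit with a detection p of 0.0128 in lacZ-positive cells and 0.0395 in total heart. Nr4a3 was not well above background on either array. The remaining members without a detected probe were Nr2e1, an eye and brain factor, and Nr0b1. In all, 25 members with 46 probes were not detected, with raw intensities from 41.8 to 86.6 in lacZ-positive cells and from 34.2 to 75.6 in total heart. At a detection p-value under 0.05, 6 of the 25 passed, namely Esr2, Nr1h3, Nr1i3, Nr4a2, Pparg and Thra, with log2 ratios of their brightest passing probes from -0.58 to 0.615. For Nr1i3, at -0.58, a second passing probe gave 0.858, of opposite sign. None of these reached 2-fold.

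Members with several detected probes show how far a ratio depends on the probe. There were 7 such genes, and the gap between their probes ran from 0.01 for Rarb to 0.40 for Vdr. In 5 of the 7 both probes had the same sign, and the exceptions were Nr2f6 and Rxrb, whose ratios lay nearest to 0.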

How the data were processed

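Gene expression was measured on 2 Illumina bead arrays, 1 per group. Per the file headers, the authors deposited for each probe the mean bead intensity (not normalized), its standard error over beads, the number of beads and a detection p-value. The authors also deposited processed intensity values that are linear and equalised between the arrays, and the method is not given in the sources used here. GenomeStudio is named in the submitters' processing notes. Gene symbols came from the platform annotation at GEO, in which 34885 probes had 1 symbol, 18 several and 10378 none; only those with 1 were used.

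Intensities were corrected with the normexp model, whose background was inferred from detection p-values by the function nec of limma 3.58.1 (R 4.3.3). The corrected values, raised by an offset of 16, were quantile-normalized before taking log2. The steps were tested on simulated data in which known ratios were set and checked for bright probes only, so dim members were not covered. A gene was kept if a probe was detected at a p-value under 0.01 on at least 1 array, and its brightest detected probe stood for it. A gene detected on 1 array has a bound: its bright value against the higher of the dim value and the lowest detected signal there. The bead standard error was carried to the log2 scale of the corrected signal. The number of arrays limits the precision of every value, and no test was possible. Promoter sequences are RefSeq's (GRCm38.p6). Named were all members and, from 15 lists, genes past 2-fold and the 3 highest and 3 lowest, of which the text gives a part, with some others named for their role after their values were seen. Members and lists were chosen with earlier results of these data known. Of each alternative the closing section gives the effect.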

Additional observations from a re-analysis of the deposited data

How the results depend on the processing

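The alternatives were no normalization between arrays, the authors' processed values, no background correction, an offset of 50, a detection limit of 0.05, the mean of detected probes and no detection filter. Of the 18 detected members, 14 kept the sign of their log2 ratio under every one of these 7, and the exceptions were Nr1d2, Nr2f2, Nr2f6 and Rxrb. The detection limit of 0.05 and the lack of a detection filter left all 18 ratios unchanged, so they were no check of sign. The mean of detected probes could move only members with several detected probes. The number of members at least 2-fold higher was 2, and it was 1 with the authors' processed values, with no background correction, with an offset of 50 and with the mean of detected probes, where Nr1h4 remained. It was 4 with no normalization between arrays, where Rarb and Nr2c1 joined. The number at least 2-fold lower was 1, and it was 0 with the authors' processed values and with no normalization between arrays. The median log2 ratio of detected members was 0.11, and 0.475 with no normalization between arrays, where that of all genes was 0.419. At the limit of 0.05, 24 members were detected in place of 18. Over all genes, 371 were at least 2-fold higher and 626 lower, against 1020 and 381 with no normalization between arrays, 219 and 404 with the authors' processed values, 225 and 427 with no background correction and 223 and 426 with an offset of 50. Apart from the shift of all genes with no normalization, the cause of these moves was not tested. The median of the retinoid supply list, 0.21, was -0.0050 at the limit of 0.05 and -0.017 with no detection filter. No paired analysis was possible because each group had 1 array. Signal over background limits the dim members most: in total heart Rarg, Rxra, Rxrg, Nr2c1 and Nr1d2 lay just under the lowest detected log2 signal of 5.65, and Nr1h4 and Vdr further below it, at 5.11 and 4.85.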
